A study of Homo sapiens with 30 samples.

Results

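The genes described here are 9 genes of cellular iron uptake, storage and release, out of 21112 genes measured in each library. They were chosen by symbol, and all 9 symbols had a row in every file. They are TFRC, STEAP3 and SLC11A2 (uptake), FTH1, FTL and NCOA4 (storage and the release of stored iron), SLC40A1 (export), and ACO1 and IREB2 (the iron sensors). RNA of diffuse large B-cell lymphoma (DLBCL) cell lines was sequenced after treatment with AZD8186, an inhibitor of the PI3Kβ and PI3Kδ kinases, at 0.5 µM, or with the solvent control DMSO. The 4 lines were OCI-Ly10 and TMD8, of the activated B-cell-like (ABC) subtype, and HT and K422, of the germinal center B-cell-like (GCB) subtype. There were 30 libraries, in 15 pairs in which AZD8186 and DMSO share the line and the time. OCI-Ly10, HT and K422 were sampled at 6, 12, 18 and 24 h, and TMD8 at 6, 18 and 24 h. A single library stands for each combination of line, treatment and time, and separate cultures are stated nowhere, so p-values measure how much these libraries vary, possibly for technical reasons. The control is named DMSO on the samples and untreated in the series' description.

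Cells take up iron mainly as transferrin, which binds the transferrin receptor and enters endosomes, where the metal is reduced and carried into the cytosol. Iron that is not used is stored in ferritin, a shell of heavy and light chains, and is set free again when ferritin is delivered to lysosomes. The iron regulatory proteins sense the metal and bind a short RNA hairpin, the iron-responsive element. Bound in a 5′ untranslated region the hairpin blocks translation, and in the 3′ untranslated region of the transferrin receptor mRNA it protects the message from decay. Protein levels were not measured in these libraries.

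The hairpins are shown because they place the ferritin, exporter and receptor messages among the possible targets of the sensors. They were searched in GENCODE 29 transcripts (GRCh38) as a C, any 5 bases, the loop CAGUGN and 5 bases able to pair with the first 5. The loop is in capitals. The ferritin and exporter elements lie in the 5′ untranslated region, FTH1 at chr11:61967574-61967602 (minus strand), FTL at chr19:48965335-48965363 (plus strand) and SLC40A1 at chr2:189580661-189580689 (minus strand).
FTH1: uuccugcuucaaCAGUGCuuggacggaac
FTL: cucuugcuucaaCAGUGUuuggacggaac
SLC40A1: caacuucagcuaCAGUGUuagcuaaguuu
TFRC held 4 matches, all in its 3′ untranslated region on the minus strand of chromosome 3. Element a lies at chr3:196050979-196051007, element b at chr3:196050575-196050603, element c at chr3:196050510-196050538 and element d at chr3:196050463-196050491.
TFRC a: aauuaucggaagCAGUGCcuuccauaauu
TFRC b: cauuaucgggagCAGUGUcuuccauaaug
TFRC c: cuguaucggagaCAGUGAucuccauaugu
TFRC d: aauuaucgggaaCAGUGUuucccauaauu
Not every transcript of these genes held a match: 7 of 8 coding transcripts of FTH1 did, 1 of 1 of FTL, 1 of 5 of SLC40A1 and 3 of 4 of TFRC. The same pattern was found in 616 of 83129 coding transcripts (0.741%) and in 291 of 19669 coding genes (1.48%). These letters were not found in the transcripts of SLC11A2, ACO1, IREB2, NCOA4 or STEAP3. They were also missing from those of PFN2, EPAS1 and CDC42BPA, which are known to carry an element. The absence of a match thus says only that these letters are not in these transcripts. It does not show that SLC11A2 or another member lacks an element, or that TFRC holds no element beyond those matched. A match describes the letters and does not show binding.

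The libraries held 15820230 to 23579029 expected counts (median 18591638). Ribosomal protein genes took 11.5% to 23.5% of the counts under DMSO and 13.8% to 26.1% under AZD8186. All 6 B-cell markers were detected in every line. The 4 ABC markers summed to 494 to 1701 TPM in the ABC lines and to 26.1 to 83.9 TPM in the GCB lines, and the 4 GCB markers to 12.4 to 46.3 TPM and 201 to 433 TPM. LMO2, a GCB marker, was at 0 in every HT library. Among other cell types, the 5 erythroid markers summed to at most 5.61 TPM and the 5 myeloid markers to at most 1.28 TPM, while K422 held 162 to 184 TPM of the 5 T-cell markers and 98.1 to 187 TPM of the 4 stromal markers, in which COL1A1, COL1A2 and PDGFRB were at 0. The T-cell markers summed to 21.9 to 30.0 TPM in OCI-Ly10, to at most 9.13 TPM in TMD8 and to at most 5.2 TPM in HT.

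TFRC, STEAP3 and NCOA4 changed with AZD8186 in the ABC lines, and TFRC, SLC11A2 and NCOA4 in the GCB lines, while the ferritin genes did not pass the test in either subtype. In ABC, 8 members passed the filter on low counts, with 2 lower, 1 higher and 5 without a call. Among all 11419 genes tested in ABC, 13.8% were lower and 15.3% higher. In GCB, 7 members passed the filter, with 2 lower, 1 higher and 4 without a call, and among all 10965 genes 23.5% were lower and 25.9% higher. The members' median log2 fold change was -0.09 in ABC and -0.0078 in GCB, beside 0.0072 and 0.025 over all genes. The comparisons of ABC and GCB use different libraries. Unless another tool is named, adjusted p-values come from the quasi-likelihood test of edgeR with Benjamini-Hochberg adjustment over all genes tested, with cell line and time as terms, and genes under 0.05 are called lower or higher.

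Marker genes moved with the treatment as well. In ABC, 5 of 6 B-cell markers were higher and 1 lower (median log2 fold change 0.47), 3 of 4 ABC markers were lower and 0 higher (median -0.22), and of 4 GCB markers 1 was lower and 1 higher (median 0.12). Of the other cell types in ABC, CD5 was the 1 T-cell marker tested and was higher (0.51), and neither of the 2 myeloid markers tested passed. In GCB, 2 of 6 B-cell markers were higher and 2 lower (median -0.013), both ABC markers tested were higher (median 0.82), and so were 3 of 3 GCB markers tested (median 0.76). Of the other cell types in GCB, 2 of 3 T-cell markers tested were higher (median 0.32), and so was DCN, the 1 stromal marker tested (0.67). The part of these genes in the results on iron genes was not tested.

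**Figure D1:**
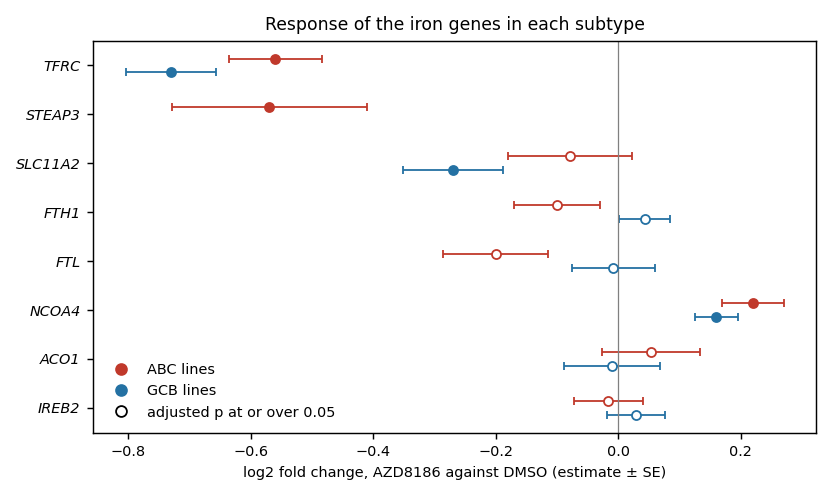
The log2 fold change of 8 iron genes (AZD8186 against DMSO, horizontal axis) with its standard error, for the ABC lines in red and the GCB lines in blue; open circles did not pass the test. TFRC lies at -0.56 and -0.73, NCOA4 at 0.22 and 0.16, and the ferritin genes between -0.2 and 0.043.

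TFRC (chr3:196027183-196082189, minus strand) encodes the transferrin receptor, the main entry route of iron. In OCI-Ly10 it was at 134, 207, 182 and 191 TPM under DMSO at 6, 12, 18 and 24 h, and at 112, 108, 98.8 and 112 TPM under AZD8186. In TMD8 it was at 144, 138 and 155 TPM under DMSO at 6, 18 and 24 h, and at 67.7, 84.2 and 99.1 TPM under AZD8186. Every ABC library under AZD8186 was below every ABC library under DMSO. In HT the DMSO libraries held 89.4, 103, 101 and 107 TPM and the AZD8186 libraries 68.4, 64.1, 67.8 and 66.4 TPM. In K422 the DMSO libraries held 144, 142, 196 and 202 TPM and the AZD8186 libraries 91.4, 73.7, 91.2 and 82.5 TPM. Within each GCB line the groups did not overlap, although K422 under AZD8186 at 6 and 18 h was above HT under DMSO at 6 h. The share of all genes whose groups separate in these ways was not counted, so the separation only describes TFRC. Fewer cells that express a gene and less RNA per cell cannot be told apart in these bulk samples.

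TFRC fell by 0.56 on the log2 scale in ABC (SE 0.0755, edgeR adjusted p = 0.000218), to 0.68 of the DMSO level. It fell by 0.73 in GCB (SE 0.0738, edgeR adjusted p = 2.92e-06), to 0.602 of the DMSO level. It was lower in 15 of 15 pairs, by log2 ratios of -1.06 to -0.3 (mean -0.65 ± 0.25 SD). With TMD8 alone the value was -0.58 and did not pass (edgeR adjusted p = 0.0747), while OCI-Ly10 alone gave -0.53, HT alone -0.56 and K422 alone -0.92, all of which passed.

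On counts the fall of TFRC was larger in K422 than in HT. On log2(TPM + 1) the difference was -0.42 and did not pass (limma adjusted p = 0.0522). The log2 ratios of K422 were -0.67, -0.9, -0.99 and -1.06 at 6, 12, 18 and 24 h, and those of HT -0.33, -0.62, -0.61 and -0.61. These CPM ratios of the lines did not overlap, but in TPM they did, with K422 at -0.65 at 6 h and HT at -0.68 at 12 and 24 h. On counts the difference was -0.36 (SE 0.108, edgeR adjusted p = 0.0398), and TFRC was the 1 member called of 7 tested, while 9.32% of all genes were lower and 7.3% higher in this difference. The call was lost without any HT pair and without the K422 pair of 12, 18 or 24 h, with differences of -0.39 to -0.28 and edgeR adjusted p-values of 0.0742 to 0.111, and kept without the K422 pair of 6 h (-0.45, adjusted p = 0.00352).

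Within the ABC lines the order over time was not shared. TFRC's log2 ratio in TMD8 was -1.0 at 6 h, -0.43 at 18 h and -0.33 at 24 h, whereas in OCI-Ly10 it was -0.3 at 6 h, -0.74 at 12 h, -0.65 at 18 h and -0.48 at 24 h. The difference of the response between TMD8 and OCI-Ly10 was -0.058 for TFRC (interval of 2 SE -0.39 to 0.27) and 0 of 8 members were called by edgeR, with 0 of them at an unadjusted p under 0.05. Over all genes 0.149% were lower and 0.28% higher. Between the subtypes TFRC's response differed by -0.17 (interval of 2 SE -0.4 to 0.066), and edgeR called 0 of 8 members, 0 of them at an unadjusted p under 0.05, beside 6.08% of genes lower and 7.32% higher. The 8 include STEAP3, which had 2 counts over the 8 libraries of HT and 2 over the 8 of K422. Its value (-0.37, SE 0.606) cannot show whether the subtypes differ, since no response could be measured in GCB.

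**Figure D2:**
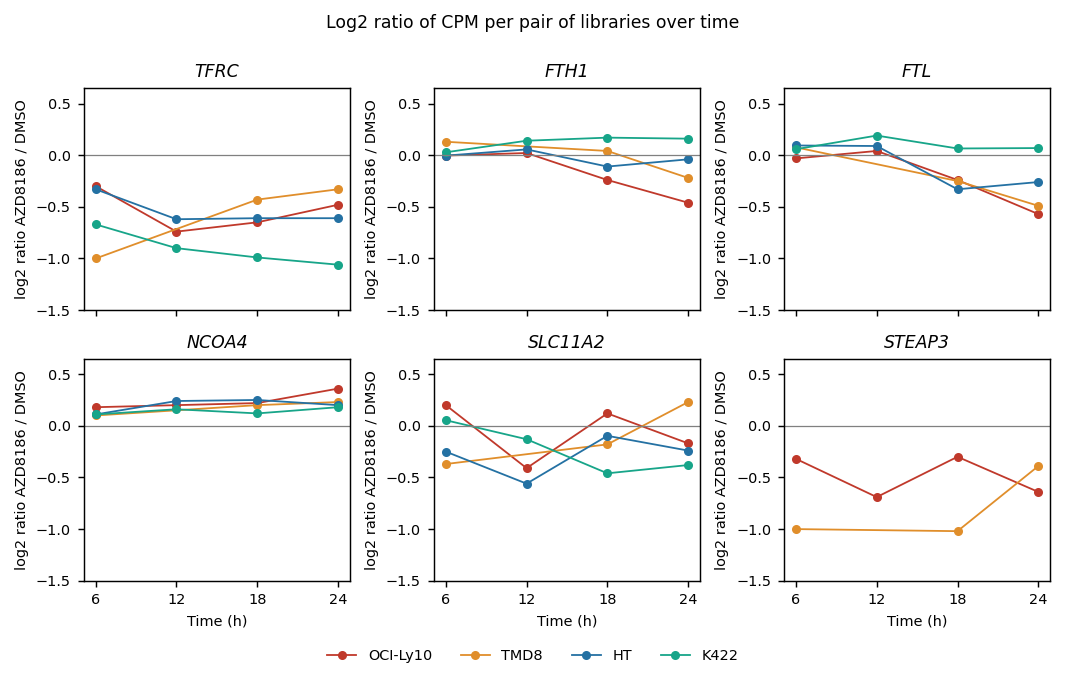
The log2 ratio of CPM between the AZD8186 and the DMSO library of each pair (vertical axis) against time in hours, for 6 iron genes and 4 cell lines, with STEAP3 drawn for the ABC lines only. TFRC lies below 0 and NCOA4 above 0 in 15 of 15 pairs, and FTL reaches -0.57 in OCI-Ly10 and -0.49 in TMD8 at 24 h.

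STEAP3 (chr2:119223831-119265652, plus strand) encodes the endosomal reductase that readies transferrin-borne iron for transport. In OCI-Ly10 it was at 3.4, 5.27, 4.77 and 5.37 TPM under DMSO and at 2.77, 2.86, 3.25 and 2.8 TPM under AZD8186, in time order. In TMD8 it was at 0.83, 2.19 and 2.49 TPM under DMSO and at 0.39, 0.86 and 1.53 TPM under AZD8186. It was lower in 7 of 7 ABC pairs, although across the lines the groups overlapped. The log2 fold change in ABC was -0.57 (SE 0.159, edgeR adjusted p = 0.0157), and without the TMD8 pair of 18 h it was -0.5 and did not pass (adjusted p = 0.056). The ABC call was also lost in TMD8 alone (-0.78, edgeR adjusted p = 0.0954) and without 18 h (-0.55, adjusted p = 0.103). With treatment as the sole term it was lost too (-0.54, edgeR adjusted p = 0.761). The call held in 6 of 7 fits that left out a pair and in 12 of 15 other alternatives. In the GCB lines STEAP3 was hardly detected, with 2 counts over the 8 libraries of HT and 2 counts over the 8 libraries of K422, and it was not tested there.

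SLC11A2 (chr12:50979401-51028566, minus strand) encodes DMT1, the carrier of ferrous iron out of the endosome. In HT it was at 2.12, 2.68, 2.17 and 3.36 TPM under DMSO and at 2.09, 1.6, 1.98 and 2.42 TPM under AZD8186. In K422 it was at 4.1, 4.56, 4.99 and 6.55 TPM under DMSO and at 4.39, 3.92, 3.72 and 4.2 TPM under AZD8186. The groups overlapped in both lines, and 7 of 8 GCB pairs had a log2 ratio below 0. It fell by 0.27 on the log2 scale in GCB (SE 0.082, edgeR adjusted p = 0.0134), and without the K422 pair of 18 h the value was -0.23 and did not pass (adjusted p = 0.055). The GCB call was also lost in HT alone (-0.3, edgeR adjusted p = 0.0664) and K422 alone (-0.26, adjusted p = 0.12). It was lost without 12, 18 or 24 h (-0.25 each, adjusted p = 0.0588, 0.07 and 0.0746) and with treatment as the sole term (adjusted p = 0.585). It passed in 7 of 8 fits that left out a pair and in 9 of 15 other alternatives. In ABC the value was -0.079 (interval of 2 SE -0.28 to 0.12, edgeR adjusted p = 0.589). The gene had 65 to 399 counts per library, few beside TFRC's 4328 to 17012.

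FTH1 (chr11:61959718-61967660, minus strand) and FTL (chr19:48965301-48966878, plus strand) encode the heavy chain of ferritin, which oxidizes iron, and the light chain, which helps to mineralize it. Their transcripts have near-identical copies elsewhere in the genome, among which RSEM divides reads, so their levels are uncertain. FTH1 in OCI-Ly10 was at 1111, 1291, 1333 and 1406 TPM under DMSO and at 1134, 1149, 957 and 837 TPM under AZD8186. In TMD8 it was at 419, 514 and 605 TPM under DMSO and at 431, 436 and 417 TPM under AZD8186. In TPM the AZD8186 library was above the DMSO library at 6 h and below it at 18 and 24 h in both ABC lines, while in CPM the pair of TMD8 at 18 h had a log2 ratio of 0.041. In HT FTH1 ranged from 366 to 399 TPM under DMSO and from 340 to 387 TPM under AZD8186, and in K422 from 559 to 577 TPM and from 536 to 602 TPM, so that the groups overlapped in both GCB lines.

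FTL in OCI-Ly10 was at 9234, 9641, 11295 and 12788 TPM under DMSO and at 9215, 8740, 8158 and 7090 TPM under AZD8186. In TMD8 it was at 7062, 9677 and 10427 TPM under DMSO and at 7014, 6707 and 5989 TPM under AZD8186. The levels under DMSO and AZD8186 were close at 6 h and furthest apart at 24 h in both ABC lines. In HT FTL ranged from 1380 to 1493 TPM under DMSO and from 1111 to 1476 TPM under AZD8186, and in K422 from 5085 to 5796 TPM and from 4954 to 6423 TPM.

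Over all times, FTH1's log2 fold change was -0.1 in ABC (SE 0.0705, edgeR adjusted p = 0.3) and 0.043 in GCB (SE 0.0419, adjusted p = 0.411). FTL's was -0.2 in ABC (SE 0.0858, adjusted p = 0.0876) and -0.0078 in GCB (SE 0.0682, adjusted p = 0.933). In GCB the intervals of 2 SE were -0.041 to 0.13 for FTH1 and -0.14 to 0.13 for FTL. In ABC, FTL passed without the libraries of 6 h (-0.3, adjusted p = 0.0234) and with DESeq2 (-0.21, adjusted p = 0.0431).

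In the ABC lines the ferritin ratios were lower at the late than at the early times, by differences that edgeR did not call. FTL's log2 ratio in OCI-Ly10 was -0.031 at 6 h, 0.041 at 12 h, -0.24 at 18 h and -0.57 at 24 h, and in TMD8 0.076 at 6 h, -0.25 at 18 h and -0.49 at 24 h. The late ratios (18 and 24 h) were all below the early ones (6 and 12 h) in these lines. The difference between late and early was -0.42 for FTL (SE 0.109, unadjusted p = 0.00262 and adjusted p = 0.175 by edgeR) and -0.27 for FTH1 (SE 0.115, unadjusted p = 0.0364 and adjusted p = 0.379). edgeR called 0 of 8 members and 0 of 11419 genes (0% lower and 0% higher), with 2 members and 1356 genes at an unadjusted p under 0.05. DESeq2 called 55 genes lower and 118 higher, FTL among the lower (adjusted p = 0.0223), and limma-voom called 1 gene. In GCB the difference was -0.25 for FTL (unadjusted p = 0.0435 and adjusted p = 0.713 by edgeR) and edgeR called 0 of 7 members and 0 of 10965 genes (0% lower and 0% higher), with 1 member and 759 genes at an unadjusted p under 0.05, where DESeq2 called 3 lower and 5 higher.

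NCOA4 (chr10:46005088-46030714, minus strand) encodes the receptor that carries ferritin to the lysosome. Its log2 ratio in OCI-Ly10 was 0.18, 0.2, 0.22 and 0.36 at 6, 12, 18 and 24 h, and in TMD8 0.1, 0.2 and 0.23 at 6, 18 and 24 h. In HT it was 0.11, 0.24, 0.25 and 0.2 and in K422 0.11, 0.16, 0.12 and 0.18. All 15 of these CPM ratios were above 0, and none reached the size of TFRC's mean ratio. In TPM, 3 of 7 ABC pairs and 1 of 8 GCB pairs were below 0 for NCOA4. NCOA4 rose by 0.22 in ABC (SE 0.05, edgeR adjusted p = 0.00586) and by 0.16 in GCB (SE 0.0354, edgeR adjusted p = 0.00142), which is 1.16-fold and 1.12-fold. On counts the ABC call was lost in TMD8 alone (0.18, edgeR adjusted p = 0.288) and with treatment as the sole term (0.21, adjusted p = 0.42). It was also lost without 18 h (0.21, adjusted p = 0.0732) and without 24 h (0.18, adjusted p = 0.0738). The GCB call was lost in K422 alone (0.12, edgeR adjusted p = 0.0828). Leaving out a pair kept the call in 7 of 7 fits in ABC and 8 of 8 in GCB. The call also depends on the scale. On log2(TPM + 1), where the median of all genes lay at -0.17 in ABC and -0.044 in GCB, NCOA4 was at 0.015 in ABC (limma adjusted p = 0.857) and 0.1 in GCB (limma adjusted p = 0.0718).

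On that TPM scale 4177 of 10132 genes were lower and 550 higher in ABC, and 3061 of 9968 lower and 1920 higher in GCB. TFRC was at -0.75 in ABC and -0.78 in GCB. FTL was at -0.4, FTH1 at -0.3 and SLC11A2 at -0.23 in ABC, and all of them passed (limma adjusted p = 0.00387, 0.0146 and 0.0483), with the median of all genes at -0.17. The direction of TFRC did not depend on the scale, whereas the calls of FTL, FTH1, SLC11A2 and NCOA4 in ABC and of NCOA4 in GCB did. The call of TFRC in the difference between K422 and HT depended on it too.

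Ratios of genes within a library do not depend on how libraries are scaled. FTH1 stood at 2.81 to 8.3 times the TPM of TFRC under DMSO and at 4.21 to 10.6 times under AZD8186. The ratio was higher under AZD8186 in 15 of 15 pairs, by a mean log2 difference of 0.456 ± 0.383 (SD, n = 7) in ABC and 0.776 ± 0.328 (SD, n = 8) in GCB. It ranged from 0.022 in OCI-Ly10 and 0.11 in TMD8, both at 24 h, to 1.21 in K422 at 24 h. Such a ratio shows unequal change of storage and uptake transcripts, not which of them changed.

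**Figure D3:**
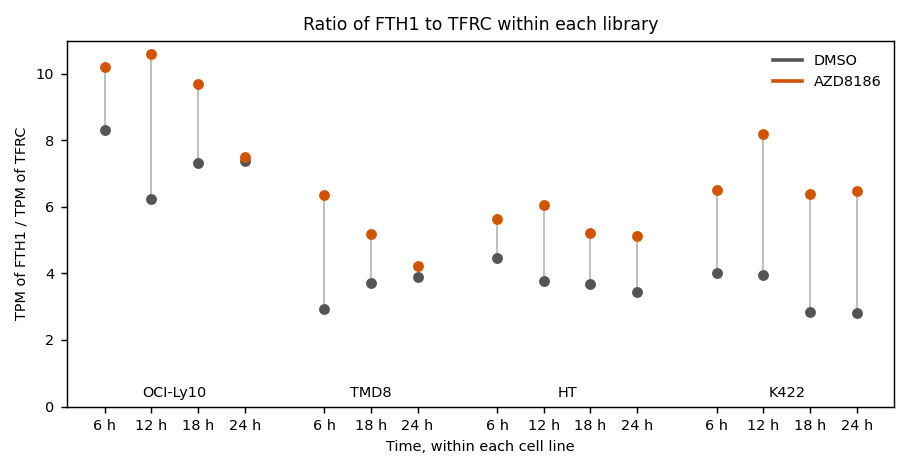
The TPM of FTH1 divided by the TPM of TFRC within each library (vertical axis) for the 15 pairs, ordered by cell line and time, with DMSO in grey, AZD8186 in orange and a line joining each pair. The orange point is above the grey point in 15 of 15 pairs, and the gap is smallest in OCI-Ly10 and TMD8 at 24 h.

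The ratio of light to heavy chain transcripts differed more between the lines than between the treatments. Under DMSO, FTL stood at 17.6 ± 1.06 times FTH1 in TMD8 (SD, n = 3), 9.84 ± 0.722 times in K422 (SD, n = 4), 8.34 ± 0.668 times in OCI-Ly10 (SD, n = 4) and 3.74 ± 0.198 times in HT (SD, n = 4). Under AZD8186 the means were 15.4, 9.65, 8.19 and 3.56. The log2 difference between treatments was -0.29 to 0.1 over the 15 pairs, with 6 above 0.

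ACO1 (chr9:32384603-32454769, plus strand) and IREB2 (chr15:78437431-78501456, plus strand) encode the iron regulatory proteins, ACO1 also acting as the cytosolic aconitase when it holds an iron-sulfur cluster. ACO1's log2 fold change was 0.054 in ABC (interval of 2 SE -0.11 to 0.21) and -0.0096 in GCB (interval of 2 SE -0.17 to 0.15). IREB2's was -0.016 in ABC (interval of 2 SE -0.13 to 0.098) and 0.029 in GCB (interval of 2 SE -0.064 to 0.12). Neither passed the edgeR test, with adjusted p-values of 0.621 to 0.927. ACO1's ratios ran from -0.5 to 0.28 over the GCB pairs and from -0.21 to 0.25 over the ABC pairs, and IREB2's from -0.13 to 0.19 and from -0.25 to 0.082.

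SLC40A1 (chr2:189560579-189583758, minus strand) encodes ferroportin, the exporter of iron from cells. It had 4, 4 and 11 counts in TMD8 under DMSO at 6, 18 and 24 h and 9, 2 and 11 counts under AZD8186. HT had 1 count in 1 of 8 libraries. OCI-Ly10 and K422 had 0 counts in 8 libraries each, which allows up to 0.0205 and 0.0196 CPM over the libraries of the line, covering counting error only. The gene did not pass the filter in any comparison, and no fold change is given.

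**Figure D4:**
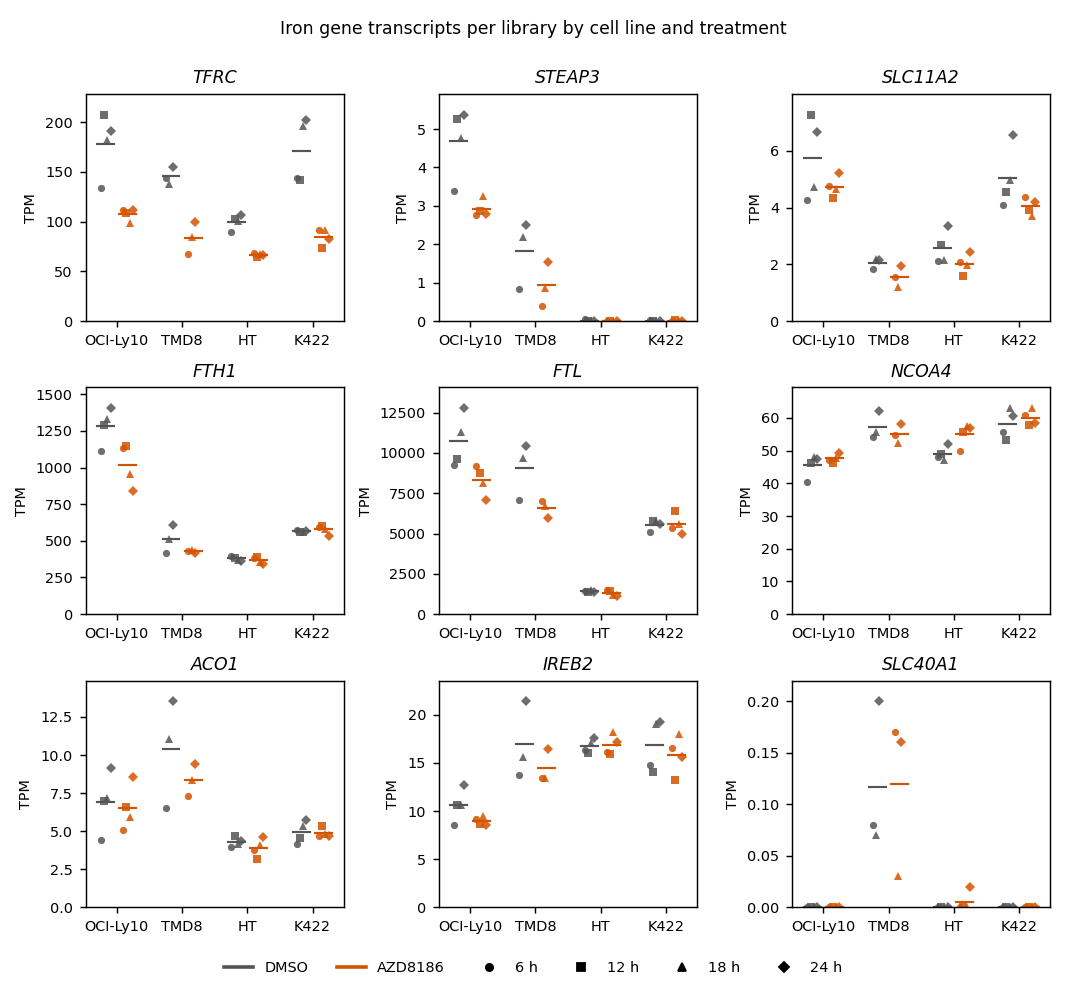
TPM of the 9 iron genes in each library (vertical axes from 0, a scale for each gene), by cell line, with DMSO in grey and AZD8186 in orange, symbols for the time points and a bar at the mean. TFRC is lower under AZD8186 in all 4 lines, FTL spans 1111 to 12788 TPM across lines, and STEAP3 is near 0 in HT and K422.

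Under DMSO the lines differed in most iron genes, and so did most genes measured. The time points of a line stood in for replicates, so n counts times and an SD includes change over time. Of 8 members tested, 8 differed between TMD8 and OCI-Ly10 (70.4% of 12596 genes), 8 between HT and OCI-Ly10 (80.6%), 7 between K422 and OCI-Ly10 (81%), 7 between HT and TMD8 (77.1%), 7 between K422 and TMD8 (77.8%) and 5 between K422 and HT (68.3%).

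In TPM, the unit that allows genes to be compared, FTL was the highest member in every line under DMSO, followed by FTH1 and TFRC. FTL averaged 10740 ± 1631 TPM in OCI-Ly10 (SD, n = 4), 9055 ± 1766 in TMD8 (SD, n = 3), 5558 ± 326 in K422 (SD, n = 4) and 1425 ± 49.4 in HT (SD, n = 4). All neighbours in this order differed by the edgeR test on counts, K422 from HT by 1.84 on the log2 scale (SE 0.0792, adjusted p = 2.31e-14), TMD8 from K422 and OCI-Ly10 from TMD8. The last step was the least firm, at -0.24 for TMD8 against OCI-Ly10 (SE 0.0832, adjusted p = 0.0133), and did not pass without OCI-Ly10 at 24 h or TMD8 at 6 h (adjusted p = 0.0602 and 0.0585).

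FTH1 was highest in OCI-Ly10, at 1285 ± 125 TPM (SD, n = 4), and TMD8 stood at -1.32 against it on the log2 scale of counts (SE 0.0671, edgeR adjusted p = 7.05e-13). HT was lowest, at 381 ± 15 TPM (SD, n = 4), below K422 by 0.45 on the log2 scale of counts (SE 0.0602, edgeR adjusted p = 1.38e-06). The order of K422 and TMD8 turned with the scale, at -0.27 for K422 against TMD8 on counts (edgeR adjusted p = 0.000714) and 0.17 on log2(TPM + 1) (limma adjusted p = 0.0725).

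TFRC averaged 179 ± 31.6 TPM in OCI-Ly10 (SD, n = 4), 171 ± 32.8 in K422 (SD, n = 4), 146 ± 8.76 in TMD8 (SD, n = 3) and 99.9 ± 7.39 in HT (SD, n = 4). HT was below K422 by 0.63 on the log2 scale of counts (SE 0.0975, edgeR adjusted p = 8.11e-06). K422 stood at -0.21 against TMD8 on counts (SE 0.104, edgeR adjusted p = 0.0727). That difference passed with the size factors of DESeq2 (-0.23, edgeR adjusted p = 0.0455), without K422 at 18 or 24 h (-0.26 each, adjusted p = 0.0432 and 0.0405) and without TMD8 at 24 h (-0.29, adjusted p = 0.0263). It turned to 0.23 on log2(TPM + 1) (limma adjusted p = 0.0599), so the order of K422 and TMD8 depends on the scale for TFRC too. TMD8 against OCI-Ly10 was at -0.27 (edgeR adjusted p = 0.0297) and did not pass without OCI-Ly10 at 12 h or without TMD8 at 18 or 24 h (adjusted p = 0.0719, 0.0984 and 0.126).

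The less abundant members had orders of their own. SLC11A2 averaged 16.3 CPM in OCI-Ly10, 9.66 in K422, 6.42 in TMD8 and 5.53 in HT, with HT against TMD8 at -0.21 (SE 0.166, edgeR adjusted p = 0.265). This order depends on the scale, since K422 against OCI-Ly10 went from -0.77 on counts (edgeR adjusted p = 2.67e-05) to -0.14 on log2(TPM + 1) (limma adjusted p = 0.285), and in TPM HT, at 2.58, was above TMD8, at 2.05. ACO1 averaged 31.6 CPM in TMD8, 21.1 in OCI-Ly10, 11.5 in K422 and 11 in HT, with K422 against HT at 0.055 (SE 0.114, edgeR adjusted p = 0.694). STEAP3 averaged 4.7 ± 0.907 TPM in OCI-Ly10 (SD, n = 4) and 1.84 ± 0.885 TPM in TMD8 (SD, n = 3), and TMD8 stood at -1.4 against OCI-Ly10 on the log2 scale of counts (SE 0.203, edgeR adjusted p = 3.84e-06). NCOA4 was higher in TMD8 than in OCI-Ly10 by 0.35 (SE 0.0625, edgeR adjusted p = 4.34e-05), while K422 against OCI-Ly10 turned from -0.056 on counts to 0.35 on log2(TPM + 1). IREB2 was higher in TMD8 than in OCI-Ly10 by 0.66 (SE 0.0759, edgeR adjusted p = 1.67e-07).

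Under DMSO ACO1 rose over time, by 0.42 on the log2 scale per 18 h (SE 0.106, edgeR adjusted p = 0.0224), the 1 of 8 members called, with 4.33% of genes lower and 2.9% higher over time. It was at 4.41, 6.98, 7.17 and 9.13 TPM in OCI-Ly10 at 6, 12, 18 and 24 h and at 6.52, 11 and 13.5 TPM in TMD8 at 6, 18 and 24 h. In HT it was at 3.95, 4.67, 4.14 and 4.34 TPM and in K422 at 4.14, 4.53, 5.32 and 5.71 TPM. The call was lost without the OCI-Ly10 library of 6 h or 24 h or the TMD8 library of 6 h or 24 h (values of 0.35 to 0.42, adjusted p = 0.0584 to 0.0833). IREB2 stood at 0.21 per 18 h (SE 0.0672, adjusted p = 0.0665).

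Genes of the wider iron pathway were taken from lists written from memory. Of 22 genes of iron transport and its regulators, 13 were tested in ABC, where 5 were lower, 2 higher and 6 did not pass, and 11 in GCB, where 5 were lower, 2 higher and 4 did not pass. Their median log2 fold change was -0.018 in ABC and -0.036 in GCB. Over all genes tested with edgeR, 13.8% were lower and 15.3% higher in ABC, and 23.5% lower and 25.9% higher in GCB. These shares stand beside the counts of this list and of the lists that follow. On log2(TPM + 1) 6 genes of this list were lower and 0 higher in ABC, and 5 were lower and 1 higher in GCB. The counts over all genes on that scale, given above, also leaned to lower in both subtypes. SLC39A14 and SLC39A8 encode ZIP carriers that import iron besides zinc and manganese. SLC39A14 fell by 0.69 in ABC (SE 0.105, edgeR adjusted p = 0.000462) and by 0.71 in GCB (SE 0.0699, adjusted p = 2.39e-06). SLC39A8 fell by 0.79 in ABC (SE 0.0992, edgeR adjusted p = 0.000134) and by 0.64 in GCB (SE 0.0671, adjusted p = 4.2e-06). FLVCR1, a heme and choline transporter, fell by 0.73 in ABC (SE 0.105, edgeR adjusted p = 0.000353) and by 0.49 in GCB (SE 0.0764, adjusted p = 0.000121). Their falls, of 0.49 to 0.79, lie beside 0.56 and 0.73 for TFRC. SLC39A14, SLC39A8 and FLVCR1 are named because they had the smallest p of the list in these data. Their falls therefore do not describe the list, whose median was near 0.

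Of 16 genes of heme synthesis and breakdown, 15 were tested in ABC (3 lower, 2 higher, 10 did not pass, median -0.017) and 14 in GCB (4 lower, 1 higher, 9 did not pass, median -0.012). On log2(TPM + 1) the counts in ABC turned to 7 lower and 0 higher, so the rises named for ABC depend on the scale. HMOX1, the inducible heme oxygenase that frees iron from heme, fell by 0.33 in ABC (SE 0.0678, edgeR adjusted p = 0.00341). ALAD, an early enzyme of heme synthesis, rose by 0.36 in ABC (SE 0.0861, edgeR adjusted p = 0.00702), and BLVRB, a biliverdin reductase, by 0.34 (SE 0.096, adjusted p = 0.0168). In GCB, HMOX2, the constitutive heme oxygenase, fell by 0.39 (SE 0.0554, edgeR adjusted p = 5.18e-05) and ALAS1, the rate-limiting enzyme of heme synthesis outside red cells, by 0.2 (SE 0.0416, adjusted p = 0.00129).

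All 26 genes of iron-sulfur cluster assembly were tested in both subtypes, with 2 lower, 5 higher and 19 that did not pass in ABC (median 0.012) and 10 lower, 6 higher and 10 that did not pass in GCB (median -0.065). On log2(TPM + 1) they were 11 lower and 0 higher in ABC and 12 lower and 2 higher in GCB, so that the rises in ABC were not called on that scale. All genes leaned to lower on that scale too, and whether these counts are particular to the list was not tested. HSPA9, the mitochondrial chaperone of cluster transfer, fell by 0.41 in ABC (SE 0.0715, edgeR adjusted p = 0.00111) and by 0.55 in GCB (SE 0.0813, adjusted p = 7.64e-05). ISCU, the scaffold on which clusters are built, rose by 0.38 in ABC (SE 0.0905, edgeR adjusted p = 0.00734), and LYRM4, a partner of the sulfur donor, by 0.25 (SE 0.063, adjusted p = 0.00964). In GCB, CIAPIN1 of the cytosolic assembly machinery fell by 0.32 (SE 0.0361, edgeR adjusted p = 7.77e-06).

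Of 6 other genes whose mRNAs are known to carry an iron-responsive element, 4 were tested in ABC, where 0 passed (edgeR, with PFN2 and CDC14A at unadjusted p-values of 0.0297 and 0.0418), and 3 in GCB, where PFN2, an actin-binding profilin, fell by 0.26 (SE 0.0593, edgeR adjusted p = 0.00228). On log2(TPM + 1), 3 were lower in ABC and 2 in GCB. In ABC the values were -0.22 for PFN2, -0.25 for CDC14A, a phosphatase, and -0.68 for EPAS1, a hypoxia-inducible factor. In GCB CDC14A was at 0.13 (edgeR adjusted p = 0.524).

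The genes whose ratios over the 15 pairs were most like TFRC's, among 6479 genes that averaged 20 CPM or more, were MTPAP (Pearson r = 0.939), C12orf29 (0.923), PRPF4 (0.92) and ATP2A2 (0.907). Among those most like FTH1 were FTL (r = 0.86), ANXA5 (0.822) and DNAJB12 (0.819). The pairs share cell lines and the ratios share libraries, so these values describe the pairs only.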

How the data were processed

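Total RNA, extracted with a NucleoSpin RNA Plus kit, was sequenced. The submitters' processing notes name HISAT2, RSEM and GRCh38.p12, without versions. The authors deposited, for each library, expected counts (RSEM's estimates, not normalized), TPM and FPKM (scaled by effective length and library size), and a transcript length per gene. FPKM was not used for a test. Expected counts were rounded, filtered with edgeR's filterByExpr, scaled by TMM and fitted in edgeR 4.0.16 (R 4.3.3), whose quasi-likelihood test was applied to treatment beside terms for line and time. Differences of the response between lines, subtypes, or late (18 and 24 h) and early times were interactions in a fit that held each pair as a block. Baselines were compared over the DMSO libraries with time in hours as a term. For log2 ratios of a pair, CPM had a prior count of 2. An interval is the estimate and 2 standard errors on each side.

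Alternatives were DESeq2 1.42.0 and its size factors, limma-voom (limma 3.58.1), other filters on low counts, log2(TPM + 1), other terms, the pair as a block, no ribosomal genes, each line alone, and leaving out a time or a pair. The code was tested on simulated data. Depth, at 15820230 to 23579029 counts per library, limits SLC40A1, STEAP3 and SLC11A2 most. No 2 libraries of a line were copies of each other (lowest chi-square per degree of freedom 6.31 over 99 pairs). The members and gene lists were chosen with earlier results of these data known. Named genes are the 9 members, the 3 smallest p per wider list and subtype, and the 4 genes most like TFRC and FTH1, of which 4 genes outside the members are not reported here. For iron-sulfur assembly, 4 genes were matched through an older symbol. Figures used matplotlib 3.10.9.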

Additional observations from a re-analysis of the deposited data

Results flagged for a closer look

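The log2 ratio of ACO1 in HT at 12 h was -0.5, apart from the other 7 GCB pairs, which lay between -0.059 and 0.28. Its gap to the nearest pair was 0.565 of the range, above Dixon's critical value of 0.526. This was the 1 of 59 groups of values that stood out in this way, and chance marks about 1 in 20. The 2 libraries held 146 counts under AZD8186 and 237 under DMSO.

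The response of TFRC differed between K422 and HT, by -0.36 on the log2 scale in edgeR's interaction term (adjusted p = 0.0398). TFRC was lower under AZD8186 in 4 of 4 pairs of each line, and the call did not hold in 7 of the 8 analyses that each left out a pair.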

How the results depend on the processing

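The fall of TFRC passed in both subtypes under all alternatives apart from TMD8 alone, with values of -0.75 to -0.49 in ABC and -0.92 to -0.56 in GCB. Over all comparisons, 2115 values of single members kept their direction and side of the threshold, 46 lost the call, 19 gained it and 79 changed sign. In 8 of the 79 a call was made on at least 1 side, all on log2(TPM + 1) with limma: STEAP3 in the subtype difference (0.53), NCOA4 in HT against OCI-Ly10 (0.11) and K422 against OCI-Ly10 (0.35), IREB2 in HT against TMD8 (0.031), FTH1 (0.17), IREB2 (0.023) and NCOA4 (0.028) in K422 against TMD8, and NCOA4 over time under DMSO (0.16). The other 71 passed on neither side. STEAP3 was at most at 0.04 TPM in HT and K422, so its 0.53 on log2(TPM + 1) could hold almost no change from the GCB lines. The cause of the other sign changes was not tested. Of the counts of called genes in the wider iron lists, 264 stayed within 1.5 times the reported count and 96 did not.

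Of the sign changes that passed on neither side, those on log2(TPM + 1) were, for treatment, ACO1 in ABC (-0.13), and FTH1 (-0.014) and IREB2 (-0.034) in GCB. For the subtype difference they were ACO1 (0.074) and NCOA4 (0.089), and for K422 against HT SLC11A2 (-0.0059). For late against early they were SLC11A2 (-0.027), NCOA4 (-0.11) and STEAP3 (-0.17) in ABC and NCOA4 (-0.032) in GCB. For baselines they were SLC11A2 in HT against TMD8 (0.24) and TFRC in K422 against TMD8 (0.23), and over time FTH1 (0.17). With at least 5 CPM in 7 libraries, FTL (0.01) and ACO1 (0.0075) changed sign in GCB, ACO1 in late against early GCB (0.0085) and IREB2 in K422 against HT (0.0076). FTH1 did so in HT alone (-0.04), FTL (0.077) and ACO1 (0.069) in K422 alone, ACO1 (-0.032) and IREB2 (0.013) in TMD8 alone, FTL in GCB with treatment as the sole term (0.055) and STEAP3 in the subtype difference by limma-voom (0.28). In GCB so did ACO1 without 12 h (0.015) and 18 h (0.0066) and FTL without 18 h (0.039) and 24 h (0.024), and in ABC ACO1 without 6 h (-0.012) and IREB2 without 24 h (0.023).

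Leaving out a pair or a DMSO library gave both signs, with a call in none, for IREB2 in ABC (-0.037 to 0.023), FTL (-0.032 to 0.041) and ACO1 (-0.054 to 0.053) in GCB, and ACO1 (-0.1 to 0.014) and STEAP3 (-1.45 to 0.63) in the subtype difference. The same held in TMD8 against OCI-Ly10 for the response of TFRC (-0.18 to 0.15), FTL (-0.19 to 0.1), SLC11A2 (-0.22 to 0.098) and IREB2 (-0.023 to 0.1), and in K422 against HT for that of SLC11A2 (-0.057 to 0.13) and IREB2 (-0.073 to 0.068). It held for late against early in ABC for IREB2 (-0.081 to 0.04) and STEAP3 (-0.07 to 0.25), and in GCB for FTH1 (-0.079 to 0.022), NCOA4 (-0.011 to 0.038) and ACO1 (-0.16 to 0.11). At baseline it held for SLC11A2 in HT against TMD8 (-0.31 to 0.024), and for ACO1 (-0.036 to 0.12) and STEAP3 (-2.38 to 1.58) in K422 against HT.

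On log2(TPM + 1) 5 members were lower and 0 higher in ABC, 0 were higher in GCB, 1 was higher in the subtype difference, 0 were lower in K422 against HT, 4 differed between K422 and TMD8 and 6 were higher over time under DMSO. Of all 10492 genes on that scale, 2518 were lower and 6062 higher in K422 against TMD8 (median 0.39), and 113 were lower and 3567 higher over time (median 0.18). For treatment, the counts over all genes on that scale are given with the TPM results above and leaned to lower in both subtypes. With treatment as the sole term, 1 member was lower and 0 higher in ABC and 1 lower in GCB. TMD8 alone, with fewer samples, gave 0 lower and 0 higher, HT alone 1 lower, and K422 alone 1 lower and 0 higher. Without 18 h, 1 was lower and 0 higher in ABC, and without 24 h 0 were higher. Without 12, 18 or 24 h, 1 was lower in GCB. DESeq2 called 1 member lower in late against early ABC, and 2 higher over time under DMSO, as did a filter of 5 CPM in 7 libraries, where 24 h against 6 h gave 0. Leaving out a pair or a DMSO library gave 1 to 2 members lower in ABC, 1 to 2 lower in GCB, 0 to 1 lower in K422 against HT and 0 to 1 higher over time under DMSO. Where no share over all genes is given, these counts show only how the members' calls move with the processing.

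With the pair of cell line and time as a block, 2 members were lower and 1 higher in each subtype, as without it, and all genes called went from 1577 lower and 1750 higher to 1733 and 1861 in ABC and from 2576 and 2840 to 2484 and 2747 in GCB. TFRC stood at -0.56 and -0.73 under the block. The deviations of an AZD8186 library were most like those of the DMSO library it is paired with in 14 of 15 pairs, but the correlation was 0.052 in K422 at 6 h and -0.0197 in K422 at 24 h, so the block was not the main design for treatment. Without the block no member's call changed in the differences of response.

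The absolute levels of FTH1 and FTL depend on how reads of near-identical copies were divided. SLC11A2 and STEAP3 rest on few counts.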
